A study of Arabidopsis thaliana with 12 samples.

Results

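COR15A, COR15B, COR47 and HIS1-3, genes of Arabidopsis thaliana known for their response to cold and to water deficit, were followed in rosette leaves of 12 plants exposed to formaldehyde gas or kept without it. The 4 genes were chosen by name, through the annotation of the array, and with earlier results of these data known. Counts of them set beside the share of all probe sets are therefore descriptive and no test of enrichment. Each gene was read by 1 probe set, a group of short probes on the array that together give the level of a transcript. They were 4 of the 13350 genes that had a probe set to themselves, and the tests ran over all 22746 probe sets of the array that were not controls. COR15A is AT2G42540, COR15B is AT2G42530, COR47 is AT1G20440 and HIS1-3 is AT2G18050.

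The plants, Columbia in ecotype, were all of the AB genotype, which carries rmpA and rmpB of Mycobacterium gastri MB19 expressed in the chloroplast. These genes encode 3-hexulose-6-phosphate synthase and 6-phospho-3-hexuloisomerase, which fix formaldehyde into sugar phosphates. Every group carried both transgenes, and plants without them were not analysed here. At 7 weeks of age they were given 72 h to acclimate, under constant light and at 24 °C. For the next 150 min, in the light at 24 °C, 4 groups of 3 plants were kept apart. Outside plants stayed out of the exposure chamber, in air with under 0.08 ppm formaldehyde. Air plants were in the chamber, of 10 L and flushed at 200 ml per min, with under 0.04 ppm. Light was 70 µmol per square metre per second in all groups. Humidity was recorded as 50 to 60% for the chamber plants and was not recorded for the outside plants, so it could not be compared between them. Low plants were in the chamber at 1 to 2 ppm, and high plants were in the chamber at 14 to 16 ppm. Because each chamber condition was a single run with 3 plants inside, condition and run cannot be told apart, and the p-values cover only the variation among plants within groups. The design holds 2 baselines for formaldehyde, the air plants and the outside plants, and the comparison of air with outside plants asks what came with the chamber when no formaldehyde was added.

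The proteins encoded by COR15A and COR15B belong to the late embryogenesis abundant (LEA) family, enter the chloroplast and stabilise its membranes when cells freeze. COR47 is a dehydrin, a hydrophilic LEA protein that accumulates in the cytosol of cells that lose water. HIS1-3 is a linker histone variant induced by drought and by abscisic acid, the hormone of water deficit. As general background, genes of the COR group are switched on by the CBF (DREB1) transcription factors in the cold and by abscisic acid through bZIP factors, and dehydration induces them too.

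The values were log2 intensities from single-channel arrays, so a difference of 1 is a doubling of signal, and the lowest value in the table was 2.11. All values of the 4 genes lay above it. Levels are compared between plants for the same gene, and not between genes, since probe sets differ in brightness. In leaf tissue, fewer cells of a type and less RNA per cell cannot be told apart. The high plants stood apart on the main axis of variation over all probe sets, which held 67.74% of the variance. Air plants 2 and 3 were closest to each other (r = 0.9916 over probe sets), whereas air plant 1 was closest to low plant 1 (r = 0.9953). Changes against air plants, or of air plants, are therefore also given without plants 2 and 3 for the 4 genes and the other listed cold and water deficit genes. This was done where it ended a call or moved a named change by over 1.5 times. The other genes named below, such as the cell type markers, were not refitted with plants left out. The summed level of the 4 measured leaf mesophyll markers, of 8 listed, was 16.37 to 16.44 in outside plants, 16.26 to 16.43 in air plants, 16.30 to 16.36 in low plants and 15.99 to 16.18 in high plants on the log2 scale, none of them at the lowest value. That sum rests mainly on its brightest genes, and 2 of the 4 markers, the Calvin cycle genes PRK and SBPASE, were called lower in high plants against each other group: PRK fell by 0.96 (limma adjusted p = 1.29e-05) and SBPASE fell by 0.92 (0.00580) in high against air. The guard cell marker FAMA, the sole measured of 6, ran from 5.73 to 6.59 in outside plants, 4.84 to 5.15 in air plants, 4.92 to 5.90 in low plants and 4.08 to 4.32 in high plants. FAMA fell by 0.83 in high against air (limma adjusted p = 0.0490) and by 1.27 in high against low (0.00710), beside the COR47, COR15B and HIS1-3 changes at that dose. The root marker PYK10, the sole measured of 4, was at the lowest value on all arrays except that of air plant 3 (6.17). None of the 3 phloem, 4 epidermis and 4 flower markers was measured. Measured here means paired by the annotation with a probe set of its own, so a gene without a pair may still be on the array. The difference between 3′ and 5′ probes for GAPDH, a sign of RNA quality, was 0.10 ± 0.04 in outside plants, 0.03 ± 0.10 in air plants, -0.073 ± 0.073 in low plants and 0.23 ± 0.05 in high plants (SD, n = 3 each). For ubiquitin it ran from -0.41 to -0.38 in outside plants, -0.42 to -0.30 in air plants, -0.34 to -0.27 in low plants and -0.51 to -0.44 in high plants. For actin it averaged 0.89 in outside plants, 0.65 in air plants, 0.79 in low plants and 0.89 in high plants. COR47 too was lowest in air and low plants. The part of these shifts in the results that follow was not tested.

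Both COR15 genes were highest in the plants outside the chamber. COR15A had 13.37, 13.29 and 13.65 in the 3 outside plants, 12.09, 11.43 and 12.39 in air plants, 12.36, 11.57 and 11.85 in low plants, and 12.35, 12.78 and 11.90 in high plants. Each of the 9 chamber plants lay below all 3 outside plants, and the 3 chamber groups overlapped. The order of the group means was outside (13.44 ± 0.19), high (12.34 ± 0.44), air (11.97 ± 0.49) and low (11.93 ± 0.40) (SD, n = 3 each), and the differences among the last 3 were not larger than the spread between plants.

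COR15B had 12.79, 13.09 and 13.01 in outside plants, 10.32, 9.81 and 10.46 in air plants, 10.18, 10.00 and 10.52 in low plants, and 11.14, 11.86 and 10.79 in high plants. No outside plant overlapped with a chamber plant, and no high plant overlapped with an air or low plant. The air and low plants covered nearly the same range. The group means were 12.96 ± 0.15 outside, 11.27 ± 0.54 in high, 10.23 ± 0.27 in low and 10.20 ± 0.34 in air plants (SD, n = 3 each).

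**Figure D1:**
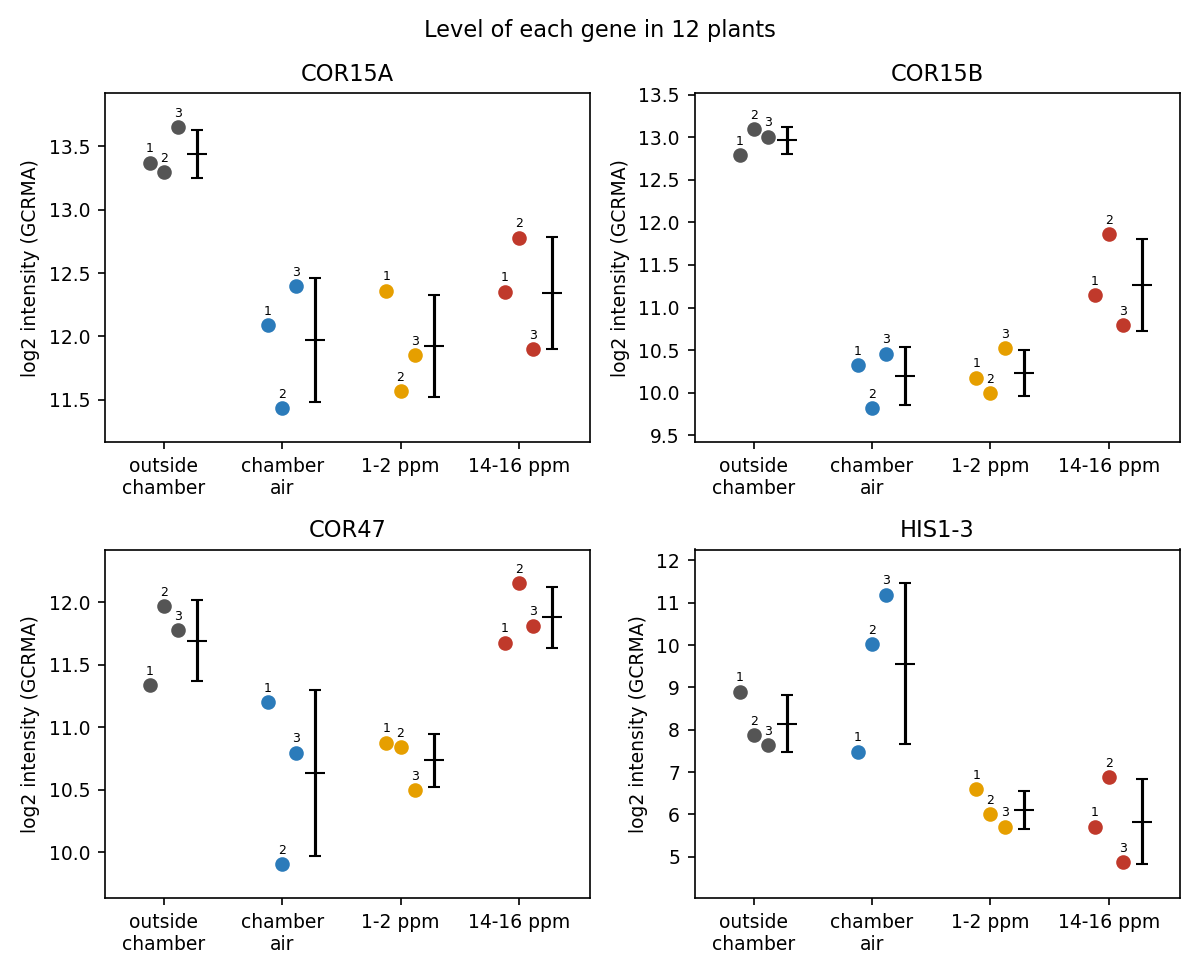
Log2 intensity of COR15A, COR15B, COR47 and HIS1-3 (vertical axes, 1 panel per gene) in the 12 plants, by group from the plants outside the chamber to those at 14 to 16 ppm. Dots are plants numbered 1 to 3, and the bar beside them is the mean with its SD. COR15B falls into 3 levels, with outside plants at 12.79 to 13.09, high plants at 10.79 to 11.86, and air and low plants together at 9.81 to 10.52.

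Against the outside plants, both COR15 genes fell in air. COR15B fell by 2.77 on the log2 scale, a 6.81-fold decrease (95% interval -3.40 to -2.14; limma adjusted p = 0.00213, n = 3 each), and ranked 87 of 22746 probe sets by the size of the change. COR15A fell by 1.46, a 2.76-fold decrease (95% interval -2.17 to -0.76; limma adjusted p = 0.0312). So 2 of the 4 genes were called lower in air than outside, where 2.5% of all probe sets were. The call on COR15B held in all 20 alternatives run. That on COR15A was lost with any of 6 plants left out, namely outside 1 (limma adjusted p = 0.0736), outside 2 (0.0669), outside 3 (0.10), air 2 (0.0887), low 3 (0.0532) and high 1 (0.0528), while the change stayed between -1.68 and -1.20. It was also lost with the replicate number as a block (limma adjusted p = 0.0661) and with the arrays of these groups alone (0.118). Without air plants 2 and 3, and with the lone air plant assumed to vary like the others, the change was -2.64 for COR15B (limma adjusted p = 0.0216) and -1.35 for COR15A (0.167). The guard cell marker FAMA fell by 1.23 in the same comparison (limma adjusted p = 0.0413), a call that was not refitted with plants left out.

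At 1 to 2 ppm no difference from the air plants was detected for either COR15 gene. COR15A differed by -0.05 between low and air plants (95% interval -0.75 to 0.66) and COR15B by 0.03 (-0.60 to 0.67), both with a limma adjusted p of 1. These intervals leave room for a change of up to about 0.7 in either direction. Without air plants 2 and 3 the differences were -0.16 for COR15A and -0.09 for COR15B. Against outside plants both genes were lower in low plants. COR15B fell by 2.73, or 6.65-fold (limma adjusted p = 0.00107), and COR15A fell by 1.51, or 2.85-fold (0.0218). These 2 of 4 genes stand beside 3.77% of all probe sets called lower. The COR15A call was lost without outside plant 1 (limma adjusted p = 0.0575), outside plant 3 (0.0762), low plant 2 (0.0815) or low plant 3 (0.0774).

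At 14 to 16 ppm the sign for COR15B depended on the baseline. COR15B rose by 1.07 against air plants, a 2.1-fold increase (95% interval 0.44 to 1.70; limma adjusted p = 0.0152), and by 1.03, or 2.05-fold, against low plants (0.40 to 1.67; adjusted p = 0.0182). Against outside plants it fell by 1.70, or 3.25-fold (95% interval -2.33 to -1.07; limma adjusted p = 0.00109), and this held in all 20 alternatives run. The high plants thus lay between the outside plants and the other chamber plants. The call against air was lost without air plant 2 (limma adjusted p = 0.0577), and that against low plants without low plant 1 (0.0519) or low plant 2 (0.0679). Without air plants 2 and 3 the change against air was 0.94 (limma adjusted p = 0.150).

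COR15A did not pass the test against air (0.37, 95% interval -0.33 to 1.08; limma adjusted p = 0.457) or against low plants (0.42, -0.29 to 1.12; 0.386). It fell against outside plants by 1.09, a 2.14-fold decrease (95% interval -1.80 to -0.39; limma adjusted p = 0.0208). That call was lost without outside plant 3 (limma adjusted p = 0.0702), high plant 1 (0.0542) or high plant 3 (0.0715). High against outside was a comparison with many calls, where 2 of the 4 genes were called lower beside 21.1% of all probe sets. In the same comparison the guard cell marker FAMA fell by 2.07 (limma adjusted p = 0.000377).

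COR47 had a different order of groups. It had 11.34, 11.97 and 11.78 in outside plants, 11.20, 9.90 and 10.80 in air plants, 10.88, 10.84 and 10.49 in low plants, and 11.68, 12.15 and 11.81 in high plants. High plants lay above all air and low plants and overlapped with outside plants, and every air and low plant was below every outside plant. The means were 11.88 ± 0.25 in high, 11.69 ± 0.32 outside, 10.74 ± 0.21 in low and 10.63 ± 0.66 in air plants (SD, n = 3 each). High and outside plants did not differ beyond their spread, nor did low and air plants.

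The dehydrin gene rose at 14 to 16 ppm over both groups with less formaldehyde in the chamber. COR47 was higher by 1.25, or 2.38-fold, than in air plants (95% interval 0.53 to 1.96; limma adjusted p = 0.0129) and higher by 1.14, or 2.21-fold, than in low plants (0.43 to 1.86; adjusted p = 0.0203). With COR15B this made 2 of 4 genes called higher against air, beside 14.7% of all probe sets, and 2 of 4 against low plants, beside 15.5%. In high against air 34.6% of all probe sets were called in either direction. The COR47 call against air was lost without high plant 2 (limma adjusted p = 0.0509), and that against low plants without low plant 3 (0.0729) or high plant 2 (0.0747). Without air plants 2 and 3 the change against air was 0.68 (limma adjusted p = 0.155).

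Between high and outside plants the COR47 difference was 0.19 (95% interval -0.53 to 0.90; limma adjusted p = 0.829). The decrease that the plant values showed between air and outside plants, -1.06 or 2.09-fold, did not pass the test (95% interval -1.78 to -0.35; limma adjusted p = 0.0942), nor did that between low and outside plants, -0.96 (-1.67 to -0.24; 0.111). Single plants weighed on the air against outside change and on the test of the other. Without air plant 1 the change between air and outside was -1.34 (limma adjusted p = 0.0305), and without air plants 2 and 3 it was -0.49. The low against outside change involves no air plant and stayed at -0.96. It passed without air plant 2 (limma adjusted p = 0.0335), because the spread was estimated from all plants together. For low against air the COR47 difference was 0.11 (95% interval -0.61 to 0.82; limma adjusted p = 1), and it was -0.46 without air plants 2 and 3.

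**Figure D2:**
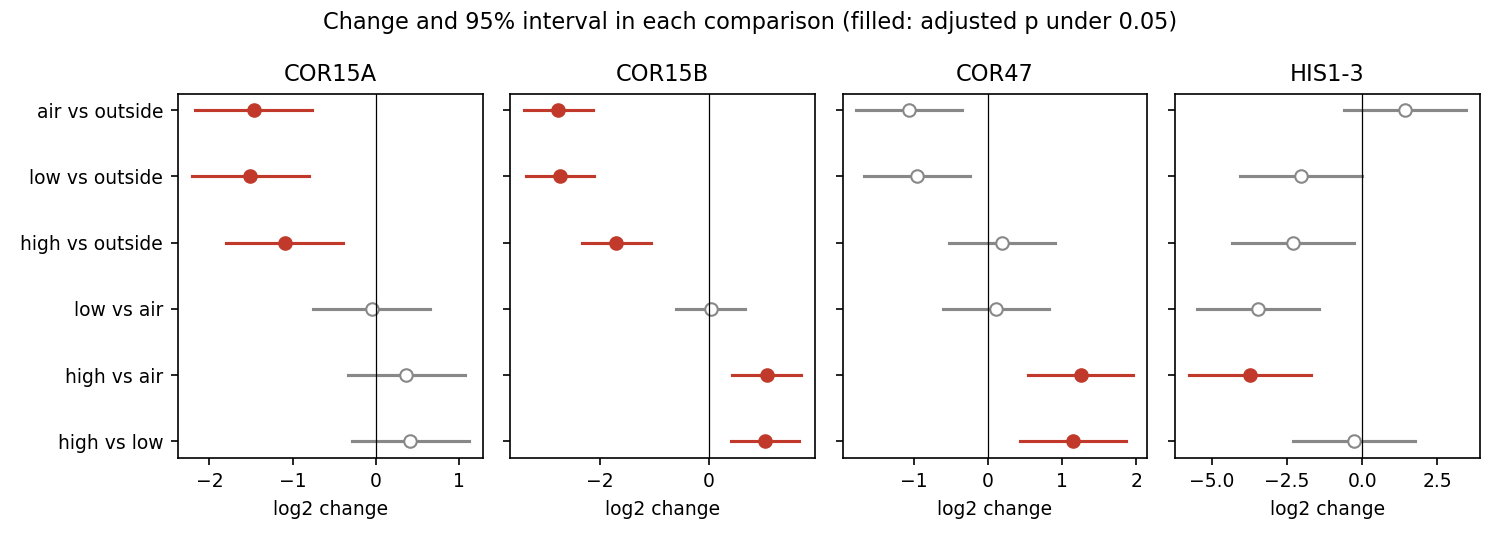
Log2 change of the 4 genes (horizontal axes, 1 panel per gene) in the 6 comparisons of groups (rows, as the group named before vs minus the group named after it), with the 95% interval from limma. Filled red points passed an adjusted p of 0.05 and open grey points did not. COR15B is at -2.77 for air vs outside, -1.70 for high vs outside and 1.07 for high vs air, whereas HIS1-3 is at -3.74 for high vs air with wider intervals.

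HIS1-3 varied most between plants. It had 8.90, 7.87 and 7.64 in outside plants, 7.48, 10.02 and 11.19 in air plants, 6.60, 6.01 and 5.71 in low plants, and 5.71, 6.88 and 4.88 in high plants. Air plants 2 and 3, which stood apart over all probe sets too, had the highest values of the 12, and air plant 1 lay below all outside plants. Low and high plants overlapped with each other and lay below every air and every outside plant. The means were 9.56 ± 1.90 in air, 8.14 ± 0.67 outside, 6.10 ± 0.45 in low and 5.82 ± 1.00 in high plants (SD, n = 3 each). Air and outside plants did not differ beyond their spread, and neither did low and high plants.

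The high plants had less of this linker histone transcript than the air plants: HIS1-3 fell by 3.74 on the log2 scale, a 13.4-fold decrease (95% interval -5.77 to -1.71; limma adjusted p = 0.00992), which ranked 460 of 22746 by size. It was 1 of 4 genes called lower, beside 19.9% of all probe sets. The call held with each of the 12 plants left out in turn, over a range of -4.78 to -2.93. Without air plants 2 and 3 together it was -1.66 (limma adjusted p = 0.225), so its size rested on these plants. A fit on the 6 arrays of high and air plants alone gave limma adjusted p-values of 0.0723 for HIS1-3, 0.0820 for COR15B and 0.0703 for COR47, with the same changes.

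At 1 to 2 ppm the HIS1-3 difference from air was -3.46, or 11-fold, and it did not pass the test (95% interval -5.49 to -1.43; limma adjusted p = 0.0989), although the change ranked 55 of 22746 by size. Without air plant 1 it was -4.50 (limma adjusted p = 0.00518), and without air plants 2 and 3 it was -1.38 (0.981). With each array centred on its median it was -3.39 (limma adjusted p = 0.0495). None of the 4 genes was called by limma in low against air, where 1.24% of all probe sets were. HIS1-3 alone of the 4 had an unadjusted p under 0.05 there, as had 4065 of all 22746 probe sets. Between high and low plants HIS1-3 differed by -0.28 (95% interval -2.31 to 1.75; limma adjusted p = 1).

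Against outside plants HIS1-3 was lower in both formaldehyde groups without passing the test. The differences were -2.32, or 4.98-fold, in high plants (95% interval -4.35 to -0.29; limma adjusted p = 0.0740) and -2.04, or 4.1-fold, in low plants (-4.07 to -0.00485; 0.237). The high against outside difference passed when air plant 1 (limma adjusted p = 0.0145) or air plant 3 (0.0426) or both air 2 and 3 (0.0170) were left out. Air against outside plants gave 1.42 (95% interval -0.61 to 3.46; limma adjusted p = 0.477), and -0.66 (1) without air plants 2 and 3. For HIS1-3 the 2 baselines thus gave the same sign at both doses, unlike for COR15B.

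Across the 4 genes the median change was 0.72 for high against air, -0.01 for low against air, 0.73 for high against low, -1.26 for air against outside, -1.77 for low against outside and -1.40 for high against outside, while the median over all probe sets was 0 in each. The comparisons against air share the air plants and those against outside share the outside plants, so they are not independent of each other.

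Whether the genes moved alike was tested on the difference of 2 genes within each plant, over the 15400 ways to divide the 12 plants into 4 groups of 3, and adjusted over the 6 pairs of genes. COR15B minus COR15A differed between groups (F = 14.9; exact permutation test, p = 0.00136, adjusted p = 0.00604). This difference averaged -0.47 ± 0.24 in outside plants, -1.77 ± 0.16 in air plants, -1.70 ± 0.44 in low plants and -1.08 ± 0.15 in high plants (SD, n = 3 each). In air against outside the change of COR15B minus that of COR15A was -1.30 on the log2 scale, or 2.47-fold, and in high against air it was 0.70; these contrasts were not tested one by one. The adjusted p stayed under 0.05 with each plant left out in turn, with F from 10.7 to 27.0. COR15A and COR15B are close relatives and their probes may share signal, which was not tested.

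COR47 and the COR15 genes differed in pattern by the F statistic. COR47 minus COR15B differed between groups (F = 17.7; exact permutation test, p = 0.0158, adjusted p = 0.0209), although the rank-based Kruskal-Wallis statistic over the same partitions did not pass (exact permutation test, adjusted p = 0.0788). The change of COR47 exceeded that of COR15B by 1.71 for air against outside, 1.78 for low against outside and 1.89 for high against outside, and by 0.18 for high against air. The difference was thus larger in the comparisons with outside plants than in that with air plants. COR47 minus COR15A differed too (F = 6.16; exact permutation test, p = 0.0209, adjusted p = 0.0209), with the largest difference of changes, 1.28, for high against outside, and this test missed the threshold without high plant 3 (F = 3.80, adjusted p = 0.0797).

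HIS1-3 differed in pattern from each COR gene. The exact permutation test gave p = 0.00779 against COR15A (adjusted p = 0.0156), p = 0.00201 against COR15B (adjusted p = 0.00604) and p = 0.0182 against COR47 (adjusted p = 0.0209). All 3 stayed under 0.05 with each plant left out in turn. The low values lay in air plants 2 and 3: COR15A minus HIS1-3 was 1.41 and 1.20 there and 4.61 in air plant 1, beside 4.47 to 6.01 in outside plants. Without these 2 plants, over 2800 partitions, the exact permutation test gave an adjusted p of 0.0754 against COR15A, 0.0609 against COR15B and 0.0379 against COR47, while the 3 pairs among the COR genes stayed at adjusted p-values of 0.0364 to 0.0391.

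**Figure D3:**
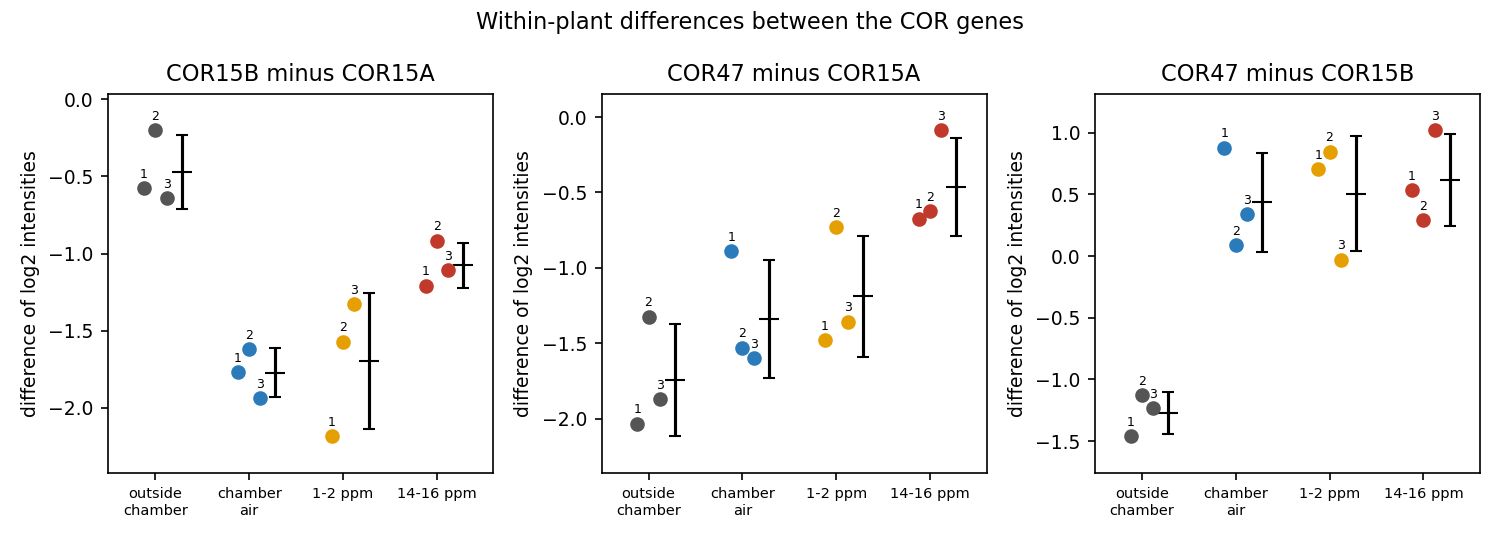
Difference of log2 intensities between a pair of COR genes within each plant (vertical axes), by group. Dots are plants numbered 1 to 3, and the bar beside them is the mean with its SD. COR15B minus COR15A is near -0.47 outside and near -1.77 in air plants, with high plants between them at -1.08.

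Other genes of cold and water deficit could be followed only in part. Of 106 further genes listed for these pathways, 8 were paired with a probe set of their own. None of 15 cold regulators and none of 28 abscisic acid signalling genes was among them, so the factors that act upstream of the COR genes were not analysed here. Of the 8 genes, 2 were called higher and 0 lower by limma in high against air (median change 0.11; 4 at an unadjusted p under 0.05), beside 14.7% and 19.9% of all probe sets. In low against air 0 were called in either direction (limma; 4 at an unadjusted p under 0.05), beside 0.756% higher and 0.488% lower. In high against low 2 were called higher and 3 lower, beside 15.5% and 18.3%. Against outside plants 1 was called higher in air (3.1% of all), 2 in low (4.03%) and 1 in high plants (16.4%). In each, 0 were called lower (limma, 3, 5 and 3 at an unadjusted p under 0.05), beside 2.5%, 3.77% and 21.1%. Of all 22746 probe sets, 9402 had an unadjusted limma p under 0.05 in high against air and 4065 in low against air. Against outside plants 4493 did in air, 4767 in low and 9845 in high plants.

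The dehydrin gene LTI30 was, like COR47, higher at 14 to 16 ppm than in the other chamber plants. LTI30 had 8.45, 8.01 and 7.20 in outside plants, 7.37, 6.71 and 6.79 in air plants, 6.61, 6.68 and 6.79 in low plants, and 7.67, 8.32 and 8.23 in high plants. High plants lay above all air and low plants and overlapped with outside plants. LTI30 rose by 1.12 against air (limma adjusted p = 0.0239) and by 1.38 against low plants (0.00888), and the difference between air and outside was -0.93 (0.142). The call against air was lost without air plant 2 (limma adjusted p = 0.0831; the change 0.99), air plant 3 (0.0755), high plant 2 (0.0841) or high plant 3 (0.0711), and without air plants 2 and 3 the change was 0.70 (0.405). The difference between air and outside was then -0.52 (limma adjusted p = 0.911). The third measured dehydrin, HIRD11, did not pass in any comparison with all plants. It differed by 0.23 in high against air (limma adjusted p = 0.623), by -0.81 in air against outside (0.102) and by -0.58 in high against outside (0.101). Air plants moved the first 2 values. Without air plant 1 these were 0.52 (limma adjusted p = 0.0441) and -1.10 (0.00757), and without air plants 2 and 3 they were -0.37 and -0.21. The HIRD11 difference in high against outside involves no air plant and stayed at -0.58. Its limma adjusted p was 0.0157 without air plant 1, because the spread was estimated from all plants together. Low against air, 0.40 with all plants, was 0.69 without air plant 1 (limma adjusted p = 0.0399) and -0.20 without air plants 2 and 3 (1).

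UGT71B6, which encodes a glucosyltransferase that inactivates abscisic acid, rose most of the listed genes at 14 to 16 ppm. It had 4.04, 2.31 and 4.01 in outside plants, 4.06, 3.08 and 3.82 in air plants, 3.36, 4.06 and 4.12 in low plants, and 6.93, 7.50 and 6.80 in high plants. The outside, air and low plants overlapped, and the high plants lay above all others. The increase was 3.42, or 10.7-fold, against air (limma adjusted p = 0.000569), 3.23 against low plants (0.000841) and 3.62 against outside plants (0.000342).

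COR27, a cold-regulated gene, was not called in any comparison with all plants. It differed by 1.00 between low and air plants (limma adjusted p = 0.134), by 0.56 between high and air plants (0.209) and by -0.19 between air and outside plants (0.932). Without air plant 1 the first 2 were 1.31 (limma adjusted p = 0.0174) and 0.86 (0.0316), and without air plants 2 and 3 the 3 were 0.38 (0.882), -0.06 (1) and 0.42 (0.428). Low against outside, 0.80 with all plants (limma adjusted p = 0.155), passed without air plant 3 (0.0217) or without air plants 2 and 3 (0.0141), and high against low, -0.44, passed without air plants 2 and 3 (0.0425). With all plants AT4G33980 was called in high against low alone, where it fell by 1.51 (limma adjusted p = 0.00707), and it differed by 1.09 between low and air plants (0.144) and by -0.43 between high and air plants (0.419). Low against air was 1.52 without air plant 1 (limma adjusted p = 0.00329) and 0.22 without air plants 2 and 3 (1), and high against air was -1.29 without air plants 2 and 3 (0.0116). Low against outside, 1.00, passed without air plant 1 (limma adjusted p = 0.0119) or without air plants 2 and 3 (0.0188). The LEA gene LEA4-5 was at 2.14, beside the lowest value, in all 12 plants.

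With all plants, AT1G06760 and AT2G30620, listed with HIS1-3, were called in other comparisons than HIS1-3. AT1G06760 was higher by 0.75 in air than outside (limma adjusted p = 0.0153) and by 1.10 in low than outside (0.00231), and fell by 0.73 in high against low (0.00221). Its air against outside call was lost without outside plant 3 (limma adjusted p = 0.0553) or air plant 2 (0.0565), and without air plants 2 and 3 the change was 0.84 (0.0806). AT2G30620 was higher by 0.78 in low than outside (limma adjusted p = 0.0114), and fell by 0.86 in high against low (0.00110). Against air, the high plants differed by -0.38 for AT1G06760 (limma adjusted p = 0.0521) and by -0.37 for AT2G30620 (0.0682), beside -3.74 for HIS1-3. For each of these genes all high plants lay below all air plants, in a comparison where 19.9% of all probe sets were called lower. The share of all probe sets without such overlap is not given here. AT1G06760 stayed uncalled there in 13 of 20 alternatives and AT2G30620 in 15 of 20, and both passed in the others.

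A further 8 genes carry cold, drought or late embryogenesis in their annotated names and were added after the annotation had been read. Of these, 2 were called higher and 1 lower in high against air, beside 14.7% and 19.9% of all probe sets. In low against air 1 and 0 were, beside 0.756% and 0.488%, and in high against low 2 and 0, beside 15.5% and 18.3%. Against outside plants the counts were 0 and 1 in air (3.1% and 2.5% of all) and 1 and 1 in low plants (4.03% and 3.77%). In high plants they were 1 and 1 (16.4% and 21.1%). SRC2, named for a soybean gene regulated by cold, was the largest. SRC2 had 14.36, 14.63 and 14.54 in high plants, against 12.09, 11.73 and 11.92 in air plants, a rise of 2.59 or 6.04-fold (limma adjusted p = 8.67e-07). It was also higher in high plants than in outside plants, by 2.93 (limma adjusted p = 3.35e-07), so its sign did not depend on the baseline as that of COR15B did. Its rise of 0.66 in low against air (limma adjusted p = 0.0439) was lost in 11 of the 12 fits that left out a plant, with adjusted p up to 0.155, and was 0.48 without air plants 2 and 3 (0.540).

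AT2G44060, which carries the synonym LEA26, resembled COR15B in sign at a smaller size. It was higher by 0.35 in high than in air plants (limma adjusted p = 0.00547) and fell by 0.46 in air against outside plants (0.0122), and these changes were 0.24 (0.161) and -0.35 (0.171) without air plants 2 and 3. DI19, a drought-induced gene, fell by 0.55 in high against air (limma adjusted p = 0.0204), a call lost without air plant 2 (0.0573), air plant 3 (0.0734), high plant 1 (0.0595) or high plant 3 (0.0638). Without air plants 2 and 3 the DI19 change was -0.33. In low against air the DI19 change was of like size, -0.56, but was not called (limma adjusted p = 0.112). It was -0.67 without air plant 1 (limma adjusted p = 0.0341) and -0.34 without air plants 2 and 3. High and low plants differed by 0.01 for DI19. DI21, also drought-induced, fell by 1.46 in high against outside (limma adjusted p = 0.0155), a call lost without outside plant 2 (0.0528), outside plant 3 (0.0559) or high plant 1 (0.0546). AT2G46140 was not called in any comparison, and AtLEA4-1, DOR and LEA18 were at or near the lowest value in most plants.

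**Figure D4:**
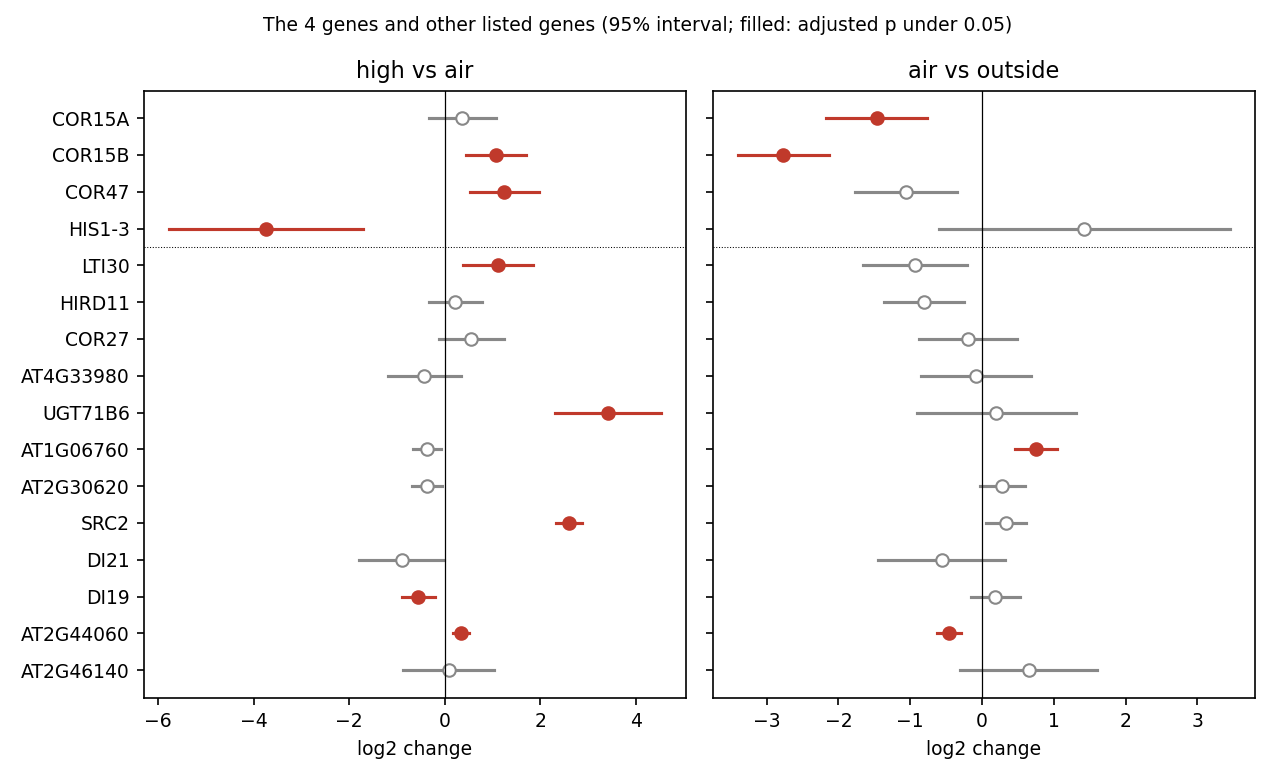
Log2 change (horizontal axes) of the 4 genes, above the dotted line, and of 12 other listed genes, below it, in high vs air (left) and air vs outside (right), with the 95% interval from limma. Filled red points passed an adjusted p of 0.05. In high vs air UGT71B6 (3.42) and SRC2 (2.59) lie to the right of COR47 (1.25), and in air vs outside COR15B (-2.77) lies farthest to the left.

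The measured genes beside the COR15 genes were not called. COR15B and COR15A are next to each other in the gene order of TAIR10.1. AT2G42520, on the COR15B side, differed by -0.05 between air and outside plants (limma adjusted p = 1) and was not called in any of the 6 comparisons, and AT2G42560 was at the lowest value in all plants. Near COR47, AT1G20410 fell by 1.17 in high against air (limma adjusted p = 0.00111), where COR47 rose. AT1G20430, also near COR47, was not called in that comparison (-0.48, limma adjusted p = 0.0724), and it was called lower in high against outside (-0.65, 0.0201). Near HIS1-3, MSRA5 (AT2G18030) rose by 0.47 in high against air (limma adjusted p = 0.00442), where HIS1-3 fell. Whether these changes differ from those of the 4 genes was not tested.

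The genes most like each of the 4 were read as Pearson correlations over the 12 plants, among 5448 probe sets of 1 gene that varied by at least 1 on the log2 scale and were above the lowest value in all plants. The plants share groups and arrays, so these values describe the patterns only. COR15A and COR15B were among the closest of each other, with r = 0.935. AT3G14595 (r = 0.955 with COR15A and 0.939 with COR15B), AT1G73480 (0.925 and 0.919) and AT3G05640 (0.880 and 0.950) were near both. AT3G46370 (0.871) completed the list for COR15A and AT5G06800 (0.908) that for COR15B. Both were dim: AT5G06800 was within 0.5 of the lowest value in all air and low plants and in 2 high plants, and AT3G46370 in 2 air, 2 low and 1 high plants, so their range came mainly from the outside plants. AT3G05640 fell by 3.96 in air against outside plants. It was picked for its likeness to the COR15 genes over these same plants, so this fall is no separate observation.

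COR47 and HIS1-3 had other neighbours in pattern. The closest to COR47 were AT5G16210 (r = 0.931), AT3G53990 (0.910), AT2G23120 (0.902), the aldehyde dehydrogenase gene ALDH7B4 (0.892) and AT5G62030 (0.877). COR47 had r = 0.713 with COR15B and 0.657 with COR15A, where it ranked 123 among the genes most like COR15A. The closest to HIS1-3 were AT1G52800 (r = 0.959), AT2G34810 (0.951), AT1G73040 (0.949), AT5G01850 (0.943) and AT2G45460 (0.934), of which AT1G52800 was near the lowest value in all high and low plants. AT2G34810 had 7.50, 10.06 and 11.07 in air plants, against 8.57, 7.83 and 7.76 in outside plants. Its peak in air plants 2 and 3 came with its choice by likeness to HIS1-3 and is no separate observation. HIS1-3 itself had r = 0.193 with COR15A, 0.0653 with COR15B and -0.368 with COR47.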

How the data were processed

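Total RNA of rosette leaves was measured on 1 single-channel array per plant, with 4 groups of 3 plants taken from the sample titles. The deposited values are log2 intensities per probe set, which the authors made with GCRMA per the submitters' processing notes; GCRMA corrects background from probe sequence, normalizes between arrays and summarises probes. The sources used here give neither its version nor its options. Scans of the arrays were not analysed here, so the background correction could not be varied. The values were used as deposited. Of 22810 probe sets, 64 controls were left out and 22746 were tested without a filter. Array medians ran from 5.68 to 5.82, and the lowest value, 2.11, was held by 26.8% to 28.1% of probe sets per array. The number of arrays limits the precision.

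Probe sets were named through the platform annotation: 1 gene was given for 13513 of them, several for 503 and none for 8730, and RefSeq held the gene of 13436 of those with 1 (TAIR10.1, used for names and gene order only). All 12 arrays entered 1 linear model in limma 3.58.1 (R 4.3.3), which left 8 residual degrees of freedom. Variances were moderated along a trend with the mean, tests were two-sided, and p-values were adjusted over the 22746 probe sets by Benjamini-Hochberg. Calls needed an adjusted p under 0.05, and intervals are 95%. Differences between genes within plants were tested by an F statistic over all partitions of the plants. The limma steps were checked on simulated data. Other work was done in Python 3.11.15 with scipy 1.17.1.

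The members and gene lists were chosen with earlier results of these data known. The 4 genes were always named. Of each list, up to 4 genes per direction with the smallest adjusted p were named, and lists with 3 or fewer measured genes in full. The 5 genes with the highest correlation were named for likeness. The alternatives were other scalings, filters, variance models, array weights, a replicate block, a stricter threshold and arrays left out.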

Additional observations from a re-analysis of the deposited data

How the results depend on the processing

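The replicate numbers did not pair the plants, since deviations of same-numbered plants correlated at -0.273 to 0.231 and no pair of groups had all above 0.1. With the number as a replicate block, COR15A in air against outside (-1.46) had a limma adjusted p of 0.0661, and the count of called probe sets was 81 for low against air and 845 for air against outside, beside 283 and 1274 without it; no other call on the 4 genes changed. Fitting only the arrays of the groups compared left COR15B (1.07), COR47 (1.25) and HIS1-3 (-3.74) in high against air, COR15B in high against low (1.03) and COR15A in air against outside (-1.46) above the threshold, brought HIS1-3 in high against outside (-2.32) under it, and called 7 probe sets in low against air and 58 in air against outside, with fewer arrays to estimate the spread. Leaving out air plants 2 and 3 together gave 0.94 for COR15B, 0.68 for COR47 and -1.66 for HIS1-3 in high against air, -1.35 for COR15A and -0.66 for HIS1-3 in air against outside, all above the threshold, brought COR47 in low against outside (-0.96) and HIS1-3 in high against outside (-2.32) under it, and called 160 probe sets in low against air and 586 in air against outside. Centring each array on its median called 678 in low against air (488 higher and 190 lower, beside 172 and 111) and brought HIS1-3 under the threshold in low against air (-3.39) and high against outside (-2.27). Without dim probe sets, with fewer tests, low against air had 1049 calls (538 higher and 511 lower), and HIS1-3 in low against air (-3.46) and high against outside (-2.32) and COR47 in air against outside (-1.06) and low against outside (-0.96) passed. Array weights gave 1719 calls (836 higher and 883 lower) in low against air, 2897 (1408 higher and 1489 lower) in low against outside, beside 1775 (917 higher and 858 lower), and HIS1-3 passed in low against air (-3.87). At an adjusted p under 0.01 the counts were 51, 282 and 583 for low against air, air against outside and low against outside. The Kruskal-Wallis statistic for COR47 minus COR15B was 6.38 (exact permutation test, adjusted p = 0.0788). Without air plants 2 and 3, an alternative chosen after seeing the data for the differences between genes, F was 3.65 for COR15A minus HIS1-3 and 4.74 for COR15B minus HIS1-3, both with an adjusted p above 0.05. For these, the cause was not tested unless stated.

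With each plant left out in turn, the changes ranged over 0.77 to 1.30 (COR15B) and 0.88 to 1.53 (COR47) in high against air, 0.74 to 1.27 and 1.01 to 1.25 in high against low, -1.68 to -1.20 (COR15A) and -1.34 to -0.70 (COR47) in air against outside, -1.73 to -1.33 and -1.13 to -0.82 in low against outside, -1.31 to -0.87 for COR15A in high against outside, and for HIS1-3 -4.50 to -2.65 in low against air and -2.84 to -1.84 in high against outside. F for COR47 minus COR15A ranged over 3.80 to 7.98. Counts ranged over 76 to 2250 in low against air, 603 to 2137 in air against outside and 820 to 2273 in low against outside. The search of promoters for motifs was not run, because no promoter sequence was used here.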
